A study of Mus musculus with 82 samples.

Results

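The genes described here are 40 genes of the cell cycle, read in resting naive CD4 T cells of inbred mice. They were taken from a list of genes of DNA replication, cyclins and mitosis, matched by gene symbol, and each was represented by its probe set with the highest mean. A total of 39 of the 40 were measured, among 19752 genes with a probe set of their own and 24922 probe sets in all. The mitotic cyclin gene Ccnb1 had no probe set named for it alone, so its level is not analysed here.

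A cell that divides copies its DNA in S phase, with origins licensed by the Mcm helicase and nucleotides supplied by enzymes such as ribonucleotide reductase. It then separates the chromosomes in mitosis under the control of cyclins, Cdk1 and the Aurora and Polo kinases. E2F factors switch on the replication genes, and B-Myb and Foxm1 with the MuvB complex switch on the mitotic genes, so that each set usually moves as a block in dividing cells. Naive T cells rest outside the cycle, held there in part by quiescence factors, until antigen calls them to divide, and transcripts of mitosis are therefore low in them.

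The study compared unmanipulated inbred strains. Naive CD4 T cells positive for CD3, CD4 and CD62L were sorted from spleens of male mice, with cells bearing CD8, CD25, Gr1, Ter119 or other exclusion markers removed. Each array held RNA of a pool of mice, 6 weeks old per the labels and 5 weeks per the series text. There were 82 Affymetrix ST1.0 arrays in 40 strain groups, of which 38 had 2 arrays each, with 5 for C57BL/6J and 1 for SWR/J. The groups were 129S1/SvImJ, A/J, AKR/J, BALB/cByJ, BPL/1J, BTBR T+ tf/J, C3H/HeJ, C57BL/10J, C57BL/6J, C57BLKS/J, C57L/J, CAST/EiJ, CBA/CaJ, CBA/J, CE/J, DDY/JclSidSeyFrkJ, FVB/NJ, JF1/Ms, KK.Cg-Ay/J, LGJ, LP/J, MA/MyJ, MRL/MpJ, MSM/Ms, NOD/ShiLtJ, NON/ShiLtJ, NOR/LtJ, NZB/BINJ, NZW/LacJ, P/J, PL/J, PWD/PHJ, RIIIS/J, SEA/GnJ, SJL/J, SM/J, SWR/J and WSB/EiJ, with 2 further groups known by their array titles. The titles and background labels of the latter differ, with C57BR in the title against CBA/CaJ in the label, and DBA2 against DBA/1LacJ. They are called C57BR-titled and DBA2-titled. KK.Cg-Ay/J carries the Ay allele of the agouti locus, the name of BTBR T+ tf/J gives the T+ and tf alleles, and the labels name no treatment.

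Array medians ran from 102 to 142 in linear intensity, with the highest on C57BL/6J replicate 5. The mean log2 level of 7 naive CD4 T cell markers, among them Cd3e, Cd4 and Il7r, stayed between 11.84 and 12.30. Replicate 2 of PL/J and replicate 2 of A/J stood apart in markers of other cells. On replicates 1 and 2, the mean of 9 B cell markers was 5.83 and 8.42 in PL/J and 5.79 and 7.14 in A/J. The mean of 5 erythroid markers was 5.80 and 7.48 in PL/J and 5.99 and 7.40 in A/J. The 2 arrays were not alike in other markers. Myeloid markers were at 5.86 and 7.43 in PL/J and at 5.94 and 5.96 in A/J. CD8 markers were at 7.544 and 8.585 in PL/J and at 7.776 and 7.858 in A/J. These arrays bear on several results below, which are given with and without them. The arrays measure RNA of whole sorted pools, so a larger share of cycling cells and more RNA per cell cannot be told apart.

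The promoter sequences of a few of these genes are shown because the members differed in how closely they followed the others. Mki67, Top2a and Ccnb2 are mitotic genes whose strain means followed the mean of the other members closely, whereas those of Mcm2 and Mcm6, subunits of the replicative helicase, followed it less closely. The 250 bases before the RefSeq transcription start, all on the minus strand of GRCm38.p6, are printed 5′ to 3′ with motif matches in capitals: Mki67 at chr7:135716380-135716629, Top2a at chr11:99024190-99024439, Ccnb2 at chr9:70421555-70421804, Mcm2 at chr6:88898781-88899030 and Mcm6 at chr1:128359706-128359955. The motifs searched on both strands were TTTCCCGC and TTTGGCGC, of the E2F type, TTTGAA, of the cell cycle homology region (CHR) type, and CCAAT.
Mki67: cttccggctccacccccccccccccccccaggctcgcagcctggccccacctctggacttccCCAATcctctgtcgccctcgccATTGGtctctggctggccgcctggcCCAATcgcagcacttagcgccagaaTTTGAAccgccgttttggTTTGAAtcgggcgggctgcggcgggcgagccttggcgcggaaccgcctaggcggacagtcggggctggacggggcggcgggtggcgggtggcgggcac
Top2a: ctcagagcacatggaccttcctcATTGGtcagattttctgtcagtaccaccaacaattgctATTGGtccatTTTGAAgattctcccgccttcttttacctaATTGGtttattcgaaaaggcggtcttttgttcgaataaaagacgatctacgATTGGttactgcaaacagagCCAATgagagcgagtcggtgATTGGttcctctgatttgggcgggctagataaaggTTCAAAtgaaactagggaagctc
Ccnb2: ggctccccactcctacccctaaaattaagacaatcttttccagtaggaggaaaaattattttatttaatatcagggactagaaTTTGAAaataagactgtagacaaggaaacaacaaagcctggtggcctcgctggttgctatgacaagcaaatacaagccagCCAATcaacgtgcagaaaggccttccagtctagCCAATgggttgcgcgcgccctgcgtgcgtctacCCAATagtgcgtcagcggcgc
Mcm2: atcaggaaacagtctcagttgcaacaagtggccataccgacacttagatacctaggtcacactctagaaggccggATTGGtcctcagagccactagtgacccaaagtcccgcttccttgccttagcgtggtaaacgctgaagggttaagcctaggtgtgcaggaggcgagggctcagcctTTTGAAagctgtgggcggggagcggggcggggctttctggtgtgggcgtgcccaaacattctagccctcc
Mcm6: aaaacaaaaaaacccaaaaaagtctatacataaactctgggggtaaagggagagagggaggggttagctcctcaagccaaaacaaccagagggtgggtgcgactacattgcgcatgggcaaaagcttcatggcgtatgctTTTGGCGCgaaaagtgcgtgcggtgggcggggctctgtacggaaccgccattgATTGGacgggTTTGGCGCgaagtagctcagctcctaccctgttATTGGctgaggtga

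The RefSeq table held 34 of the 40 genes, in 35 windows of 300 bases, and Ccnb1, whose level was not measured, was among them. CCAAT was found in 28 of these windows (80%), against 37.4% of all 32851 windows. TTTGAA was found in 15 windows (42.9%), against 17.9% of all windows. Either E2F form was found in 6 windows (17.1%), against 1.56%, and these belonged to Cdc6, Cdk2, Mcm3, Mcm5, Mcm6 and Mcm7. A match describes the C57BL/6J reference sequence alone, and none of the arrays measured factor binding.

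The shared level of the module was described first, as the mean log2 value of the 39 genes on each array. It had a median of 7.03 over the strains and ran from 6.78 in SWR/J, which has 1 array, to 7.35 in A/J. This range of 0.57 on the log2 scale is 1.48-fold. The SD of the strain means was 0.13 and the SD between arrays of the same strain 0.07. The intraclass correlation, the share of variance lying between strains, was 0.707. SJL/J was next to lowest, with arrays at 6.85 and 6.72, and CE/J next to highest, with arrays at 7.29 and 7.28. The ranges of these strains did not overlap. MA/MyJ, SEA/GnJ and DBA2-titled followed CE/J at 7.22, 7.21 and 7.20, a spread smaller than the SD between arrays. The 5 arrays of C57BL/6J covered 6.88 to 7.19, a spread that takes in the means of most strains in the middle of the order.

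**Figure D1:**
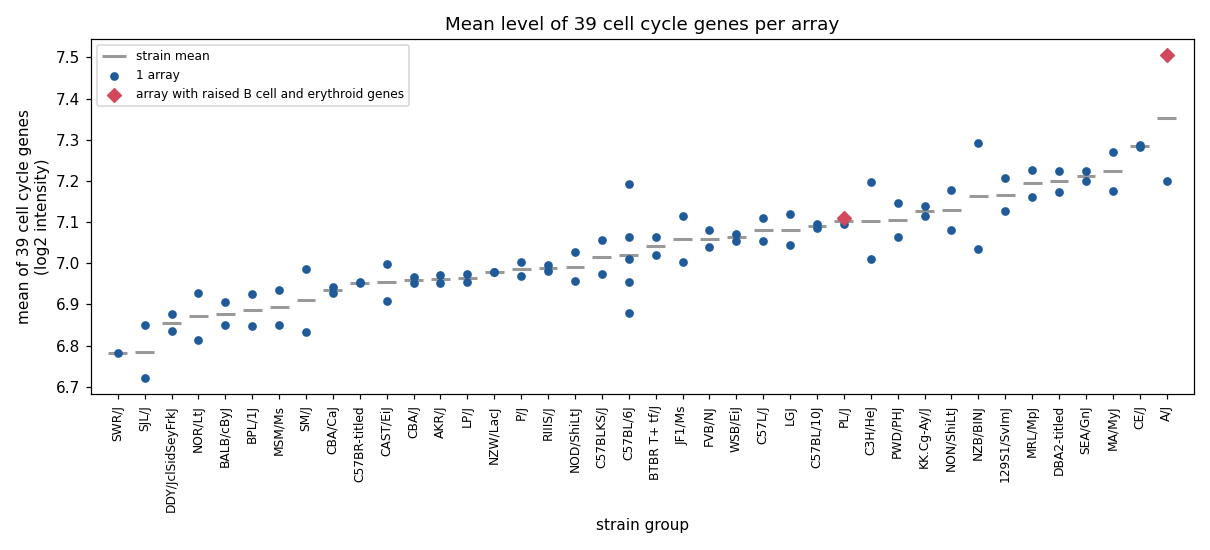
Mean log2 intensity of 39 cell cycle genes on each of 82 arrays (points) with strain means (bars), strains ordered from the lowest to the highest mean. SWR/J and SJL/J lie lowest near 6.78 and A/J highest at 7.35, and its replicate 2, marked with a diamond, is the highest array at 7.51.

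The high mean of A/J rested on its arrays unequally, with 7.20 on replicate 1 and 7.51 on replicate 2, the array with raised B cell and erythroid markers. Without that array and PL/J replicate 2, CE/J was the highest strain, the SD of strain means was 0.12 and the intraclass correlation 0.718. On PL/J the other array with raised markers of other cells had a module mean of 7.11 against 7.10 on replicate 1. CE/J replicate 2, which was kept, was also above replicate 1 in erythroid markers (6.277 against 5.659) and B cell markers (6.092 against 5.815). Its module mean was 7.28, against 7.29 on replicate 1. Over all 82 arrays the module mean correlated with the B cell marker mean at Pearson's r = 0.255. Without PL/J replicate 2 and A/J replicate 2 this was 0.126. The correlation with erythroid markers was 0.296 and fell to 0.0630 in the same way. It was 0.421 with 8 regulatory T cell markers and 0.417 with 12 activated T cell markers. Without the 2 arrays farthest from the median of each marker mean these were 0.459 (without both JF1/Ms arrays) and 0.303 (without SJL/J replicate 2 and A/J replicate 2). The deviations of arrays from their strain mean gave 0.348 and 0.582 for the same marker lists, and 0.386 and 0.577 without PL/J replicate 2 and A/J replicate 2. They gave 0.259 for B cell, 0.376 for erythroid and 0.387 for natural killer cell markers, or 0.214, 0.324 and 0.404 without those arrays. Myeloid, CD8 and naive T cell markers gave 0.134, 0.217 and 0.234. These are descriptions over arrays that share strain, pool and array, and the part of other cells in the module level was not tested. Taken over all 82 arrays, the correlation was 0.0743 with naive T cell markers and -0.116 with the array median.

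Gene by gene, 31 of the 39 members differed between strains in limma's moderated F-test (Benjamini-Hochberg adjusted p under 0.05, the adjustment running over every probe set), or 79.5%. Among all 24922 probe sets 47.6% passed. Probe sets in the upper range of the signal pass more often. Of the 21 members brighter on average than the median value of the arrays, 17 passed (81.0%), against 77.1% of all such probe sets. The share of these 21 was thus near the background for their brightness. Of the 29 members whose highest strain mean exceeded that median, 25 passed (86.2%), against 72.6% of all such probe sets. This second filter lets genes in through the strain where they are high, a difference that the F-test also measures. These 2 shares are therefore not read as an excess. The dimmer members were not compared separately with probe sets of like brightness. The median SD of strain means was 0.19 for the members and 0.14 for all probe sets, and the median SD between arrays of a strain 0.16 for both. A total of 15 members spanned at least 2-fold between their lowest and highest strain. The 8 members that did not pass were Mcm4, Tpx2, Birc5, Cenpe, Aurka, Cdca8, Cdc45 and Tk1, with adjusted p from 0.0637 for Tpx2 to 0.575 for Tk1.

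**Figure D2:**
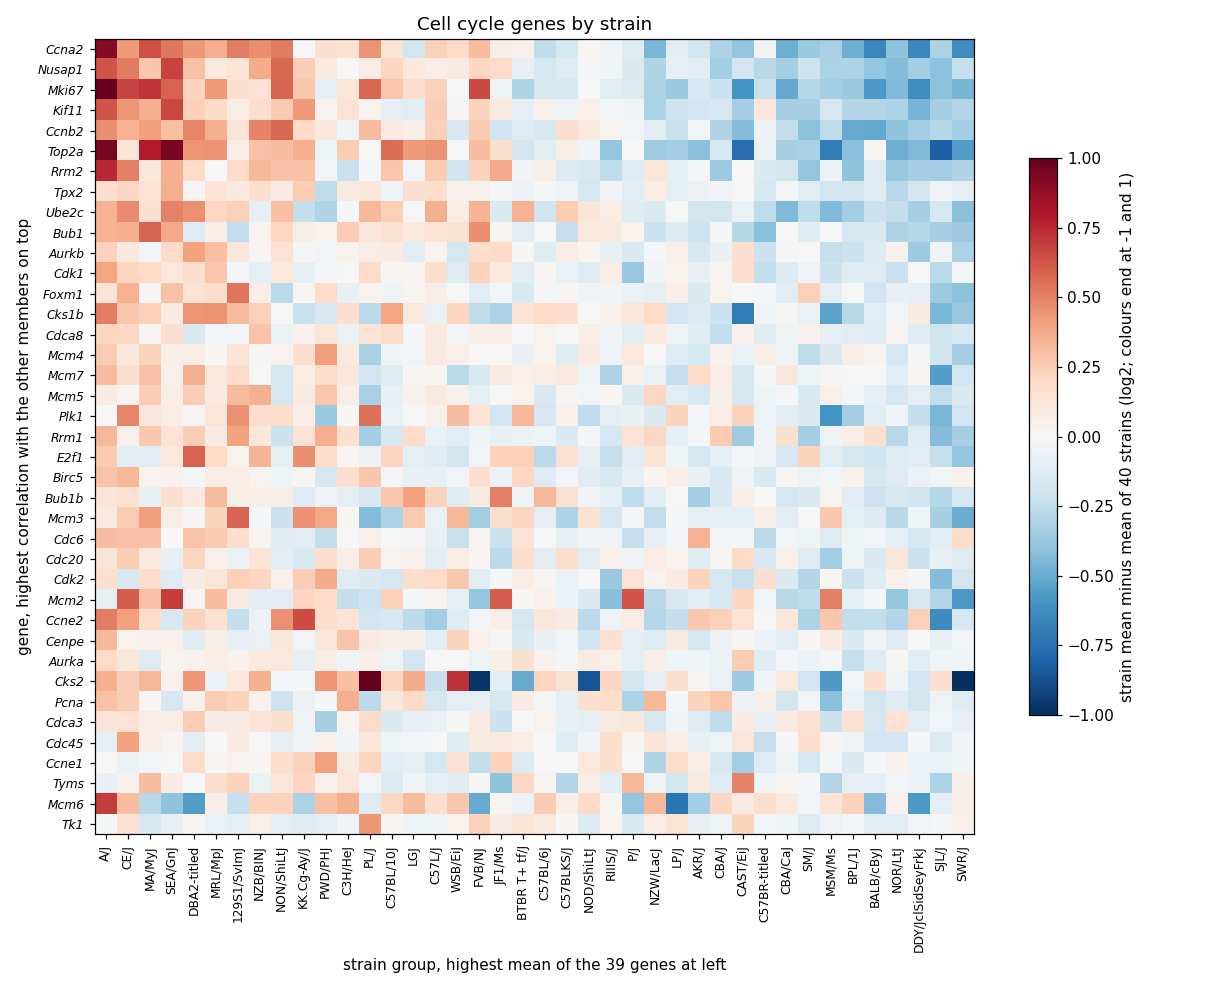
Strain mean minus the mean of 40 strains (log2, colour) for each of 39 cell cycle genes, with genes ordered by their correlation with the other members and strains by the mean of the 39 genes. The mitotic genes in the upper rows, such as Ccna2, Nusap1 and Mki67, run from high at left (A/J) to low at right (SWR/J), whereas rows such as Cks2, Mcm2 and Mcm6 hold single strains that break the order.

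Genes of origin licensing and the replication fork passed in 7 of 9 cases. Mcm2, a subunit of the Mcm2-7 helicase, had the highest intraclass correlation of all members, 0.838. Its intensity ran from 328 in SWR/J over a median of 464 to 786 in SEA/GnJ (adjusted p = 1.51e-12, limma). The arrays were at 782 and 789 in SEA/GnJ, at 802 and 706 in P/J, at 785 and 704 in CE/J, at 737 and 743 in JF1/Ms and at 617 and 778 in MSM/Ms. Each of these 5 strains was called higher than the mean of the other 39, by 0.52 to 0.71 on the log2 scale. The low side held SWR/J with its 1 array, RIIIS/J at 396 and 334, NOR/LtJ at 390 and 357, FVB/NJ at 360 and 388 and SJL/J at 396 and 400. All arrays of the 5 high strains lay above all arrays of the 5 low strains.

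Mcm6, another subunit of the same helicase, had a different strain order. It ran from 210 in LP/J over a median of 364 to 565 in A/J (adjusted p = 3.58e-11, limma), with an intraclass correlation of 0.798. The LP/J arrays were at 192 and 229 and the A/J arrays at 483 and 662. LP/J was 0.75 ± 0.11 (SE) below the mean of the others on the log2 scale, and A/J 0.72 ± 0.11 above. DDY/JclSidSeyFrkJ, DBA2-titled, FVB/NJ, BALB/cByJ, SEA/GnJ and P/J were also called lower, by 0.40 to 0.59. SEA/GnJ and P/J thus lay on the low side for Mcm6 and on the high side for Mcm2, while FVB/NJ was low for both. C57BL/6J was called higher for Mcm6, with its 5 arrays between 395 and 465, but not with quantile normalization or with arrays centred on their median.

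The other helicase subunits varied less. Mcm3 ran from 158 in SWR/J over 221 to 334 in 129S1/SvImJ, whose arrays were at 317 and 352 (log2 difference 0.60 ± 0.11, adjusted p = 9.30e-05, limma). Mcm5 ran from 307 in PL/J over 388 to 493 in NZB/BINJ, with arrays at 301 and 314 in PL/J and at 520 and 467 in NZB/BINJ. Mcm7 ran from 311 in SJL/J to 585 in DBA2-titled, and Mcm4 from 446 in SWR/J to 750 in PWD/PHJ without passing the F-test (adjusted p = 0.0675). Pcna, the sliding clamp of the DNA polymerases, ran from 1482 in MSM/Ms over 1949 to 2534 in C3H/HeJ (adjusted p = 1.15e-06, limma). The MSM/Ms arrays, at 1333 and 1648, lay below both C3H/HeJ arrays, at 2676 and 2400. Its second probe set gave nearly the same strain means (r = 0.999), and whether both probe sets read the same or near-identical sequences was not tested. Cdc6, which loads the helicase at origins, passed the F-test with a span of 59.7 to 91.4, but no single strain was called. Cdc45, which activates the helicase, spanned 96.6 to 149 and did not pass.

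Of the nucleotide supply genes, 3 of 4 passed. Rrm2, the small subunit of ribonucleotide reductase, ran from 64.1 in BPL/1J over 83.1 to 143 in A/J. The A/J arrays were at 107 and 190, and the higher came from the replicate with raised markers of other cells. Rrm1, the large subunit, ran from 301 in SJL/J to 538 in 129S1/SvImJ (arrays 554 and 522). Tyms, thymidylate synthase, ran from 111 in JF1/Ms over 145 to 207 in CAST/EiJ. Its CAST/EiJ arrays, both at 207, lay above both JF1/Ms arrays, at 117 and 106. The difference of CAST/EiJ from the others was 0.51 ± 0.09 (adjusted p = 2.48e-05, limma). Tk1, the S phase thymidine kinase, did not pass, and its probe sets gave unlike strain orders (r = 0.581).

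All 8 measured genes of cyclins, Cdks and Cks subunits passed. Cks2, a small Cdk-binding subunit, had the widest span of all members, 6.11-fold, from 69.6 in SWR/J over a median of 215 to 425 in PL/J (adjusted p = 1.19e-09, limma). The SWR/J level rests on 1 array. FVB/NJ arrays were at 109 and 104, NOD/ShiLtJ at 89.7 and 148, WSB/EiJ at 333 and 360 and PL/J at 479 and 377. FVB/NJ lay 1.01 ± 0.15 below the mean of the others on the log2 scale, NOD/ShiLtJ 0.89 below, WSB/EiJ 0.74 above and PL/J 1.04 ± 0.15 above. Without 1 of its arrays NOD/ShiLtJ was no longer called (adjusted p up to 0.540, limma). The low and high strains did not overlap, and the arrays of C57BL/6J lay between them, from 217 to 277. The 2 further Cks2 probe sets followed the same strain means (r = 0.993 and 0.968), and whether these probe sets also read near-identical copies was not tested.

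Cks1b, the sister subunit, had another pattern. It ran from 96.1 in CAST/EiJ over 157 to 223 in A/J (adjusted p = 4.74e-07, limma). Arrays were at 96.4 and 95.7 in CAST/EiJ, at 93.1 and 125 in MSM/Ms and at 111 and 116 in SJL/J, all below the A/J arrays at 191 and 260. CAST/EiJ lay 0.72 ± 0.12 below the mean of the others.

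The cyclins differed in their strains too. Ccna2, cyclin A2 of S phase and mitosis, ran from 43.9 in BALB/cByJ over 68.3 to 130 in A/J (arrays 107 and 158). Ccnb2, a mitotic cyclin, ran from 104 in BALB/cByJ to 220 in NON/ShiLtJ, where arrays were at 204 and 238. Ccne1 and Ccne2, the cyclins of the G1 to S step, peaked in different strains. Ccne1 ran from 171 in CAST/EiJ (172 and 170) over 217 to 289 in PWD/PHJ (284 and 293), and its SD between arrays of a strain was 0.09. PWD/PHJ lay 0.42 ± 0.07 above the mean of the others (adjusted p = 8.76e-06, limma). Ccne2 ran from 29.8 in SJL/J (30.8 and 28.9) over 45.9 to 72.8 in KK.Cg-Ay/J (69.8 and 76.0). Cdk2, the partner of cyclin E, was lowest in SJL/J (451 and 278) and highest in PWD/PHJ (577 and 659). Cdk1, the mitotic kinase, passed narrowly (adjusted p = 0.0402), and lost the call when the 2 arrays with raised markers of other cells were left out and in 21 of 82 exclusions of a single array, with values up to 0.0843.

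Both transcription factors passed. E2f1, which activates the replication genes, ran from 78.5 in SWR/J over 97.9 to 155 in DBA2-titled, whose arrays were at 154 and 156 (difference 0.60 ± 0.09, adjusted p = 3.95e-06, limma). KK.Cg-Ay/J arrays, at 149 and 136, and NZB/BINJ arrays, at 133 and 128, were also high. C57BL/6J was called lower by 0.28 ± 0.06, with arrays from 75.7 to 93.0, but not with the replicate number as a block in the fit. That block takes up C57BL/6J replicates 4 and 5, numbers that no other strain has. Foxm1, which drives mitotic genes, was highest in 129S1/SvImJ at 115 (arrays 120 and 109), against a median of 78.9.

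Of the mitotic kinases, checkpoint and passenger genes, 4 of 7 passed. Plk1, the Polo kinase, ran from 91.3 in MSM/Ms (91.4 and 91.2) over 138 to 203 in PL/J (232 and 177). MSM/Ms lay 0.61 ± 0.11 below the others (adjusted p = 3.77e-05, limma), and no array of MSM/Ms reached the arrays of PL/J. Bub1b, a spindle checkpoint protein, was highest in JF1/Ms at 78.5 (89.3 and 69.0) against a median of 54.0. Bub1, its partner kinase, was highest in MA/MyJ (47.1 and 35.2) against 27.5. Aurkb, the kinase of the chromosomal passenger complex, passed narrowly (adjusted p = 0.0428), and lost the call in 46 of 82 exclusions of a single array, with values up to 0.0878. Aurka, Birc5 and Cdca8, the last 2 being further passenger subunits and Aurka the spindle pole kinase, spanned 1.40- to 1.44-fold and did not pass.

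The 3 genes tied to the ubiquitin ligase of mitotic exit passed. Ube2c, its ubiquitin-conjugating enzyme, ran from 107 in CBA/CaJ over 142 to 205 in SEA/GnJ (200 and 211). Cdc20, its activator, ran from 94.2 in MSM/Ms to 143 in CE/J. Cdca3, a trigger of mitotic entry, was lowest in PWD/PHJ at 78.1 (78.0 and 78.3) and highest in DBA2-titled at 118 (128 and 108).

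Of the spindle and chromosome genes, 4 of 6 passed, and they had the widest shared range. Mki67, which encodes the proliferation marker Ki-67, ran from 69.4 in DDY/JclSidSeyFrkJ (72.6 and 66.4) over 99.8 to 227 in A/J (157 and 327). MA/MyJ arrays were at 193 and 159 and CE/J arrays at 159 and 183, near replicate 1 of A/J. The difference of A/J from the others was 1.11 ± 0.18 (adjusted p = 2.30e-05, limma) and was not past the threshold without replicate 2 (adjusted p = 0.293). Top2a, topoisomerase II alpha, ran from 51.6 in SJL/J (57.8 and 46.0) over 90.7 to 175 in SEA/GnJ (161 and 191), with A/J also at 175 (132 and 231). SJL/J lay 0.84 ± 0.18 below the others and SEA/GnJ 0.97 ± 0.18 above. Nusap1, a spindle microtubule protein, ran from 35.5 in NOR/LtJ to 76.7 in SEA/GnJ, and Kif11, the spindle motor, from 36.7 in DDY/JclSidSeyFrkJ to 80.4 in SEA/GnJ. Arrays of SEA/GnJ were at 67.7 and 87.0 for Nusap1 and at 76.2 and 84.9 for Kif11, above both arrays of the lowest strain in each case.

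**Figure D3:**
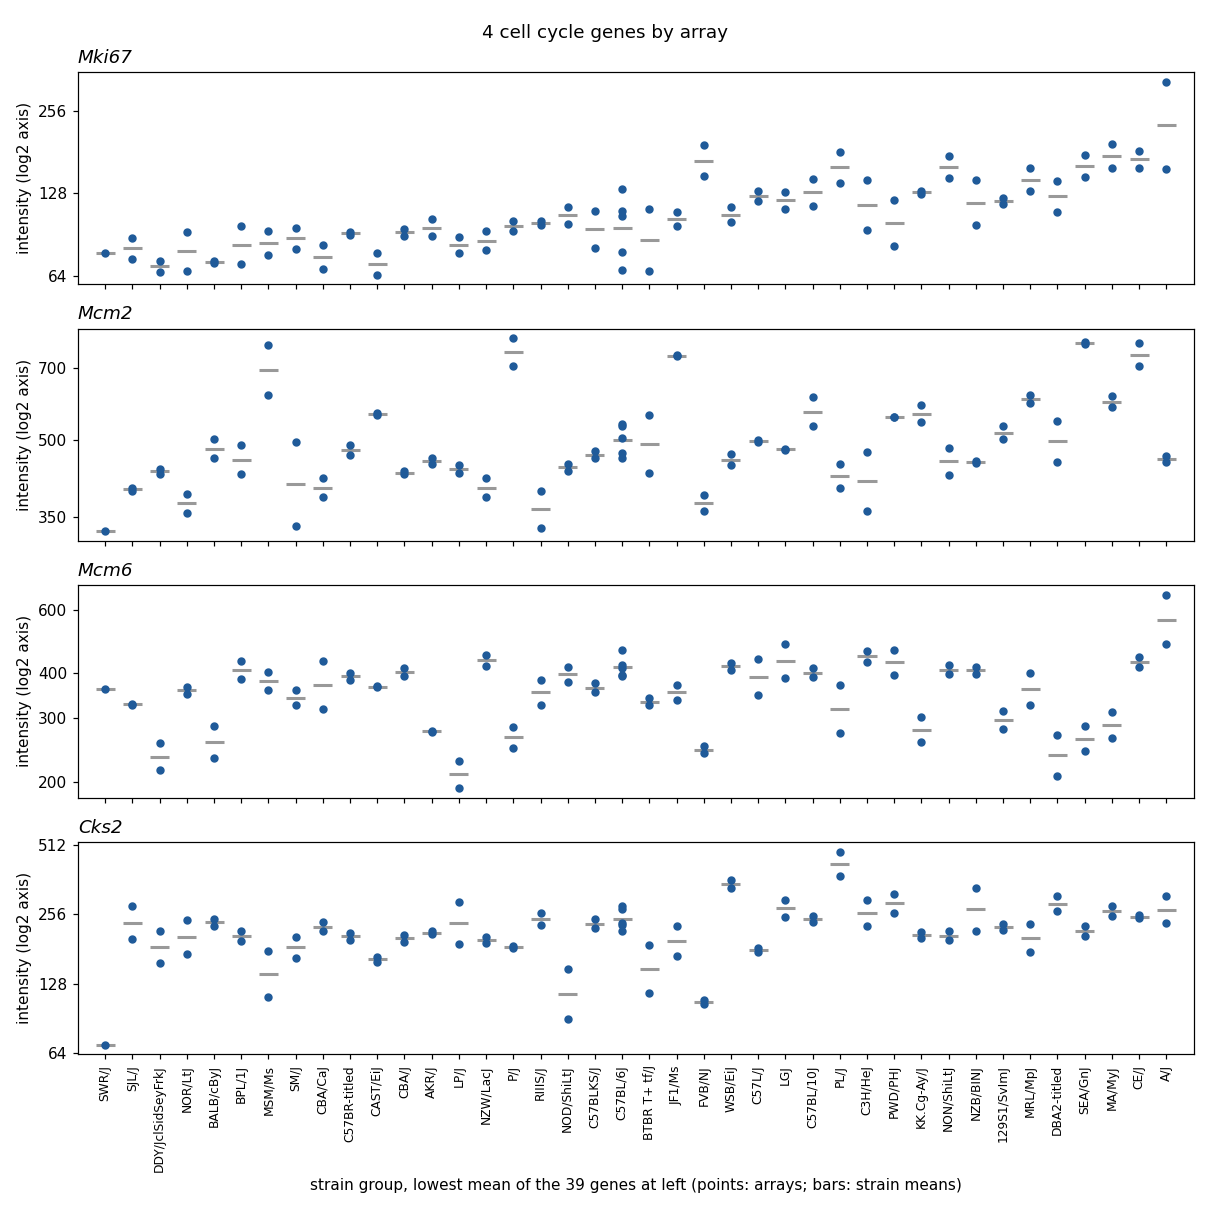
Intensity (log2 axis) of Mki67, Mcm2, Mcm6 and Cks2 on each of 82 arrays (points) with strain means (bars), strains in the order of the mean of the 39 genes. Mki67 rises from left to right up to 327 on replicate 2 of A/J, while Mcm2, Mcm6 and Cks2 hold high or low strains anywhere along the order, such as LP/J at 210 for Mcm6 and FVB/NJ near 106 for Cks2.

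How far the members moved together was described by the correlation of each member with the mean of the other 38 over the 40 strain means. It was at least 0.7 for 9 members, namely Ccna2 (0.895), Nusap1 (0.884), Mki67 (0.862), Kif11 (0.861), Ccnb2 (0.835), Top2a (0.819), Rrm2 (0.790), Tpx2 (0.720) and Ube2c (0.707). All but Rrm2 act in mitosis or, for Ccna2, in S phase and mitosis. It was under 0.5 for 18 members, including Tk1 (0.0332), Mcm6 (0.120), Ccne1 (0.236), Tyms (0.236), Pcna (0.333), Cks2 (0.365) and Mcm2 (0.404). The median r between pairs of members was 0.284 over strain means and 0.159 over deviations of arrays from their strain mean, or 0.133 without the 2 arrays with raised markers of other cells. Within the spindle and chromosome group these medians were 0.724 and 0.480, the latter 0.457 without those arrays. Among the replication fork genes they were 0.218 and 0.306. Some pairs that include replication genes were closer, with r over strain means of 0.770 for Mcm4 and Rrm1, 0.766 for Mcm5 and Rrm1 and 0.651 for Mcm4 and Mcm5. The pair closest to each other was Ccna2 and Mki67 (r = 0.906 over strain means). All these values come from the same arrays and normalization, and are descriptions.

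The strain F-test was then repeated with the mean of the other 38 members on each array as a covariate for the shared signal. A total of 25 members still passed, all among the 31 that had passed before. With the mean of all members as the covariate, 47% of all probe sets passed. The 6 that no longer passed were Ccna2 (adjusted p = 0.240), Aurkb (0.206), Kif11 (0.139), Cdk1 (0.0912), Bub1 (0.0766) and Ccnb2 (0.0690), all from limma's F-test. Their correlations with the other members ran from 0.636 for Cdk1 to 0.895 for Ccna2. Mcm6 (6.55e-11), Mcm2 (2.00e-11), Cks2 (2.18e-09), Ccne1 (1.26e-06) and Mcm3 (1.62e-06) kept small adjusted p. Some members showed both patterns. Top2a (0.000118), Ube2c (0.00370), Mki67 (0.00516), Nusap1 (0.00647) and Rrm2 (0.0109) followed the shared level closely over strain means and still passed with the covariate. The slope of the covariate was set by deviations of arrays within strains. There their correlations were lower, such as 0.321 for Ube2c against 0.707 over strain means. The fit can therefore leave part of the shared level in place, so a pass does not show a strain difference beyond it.

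**Figure D4:**
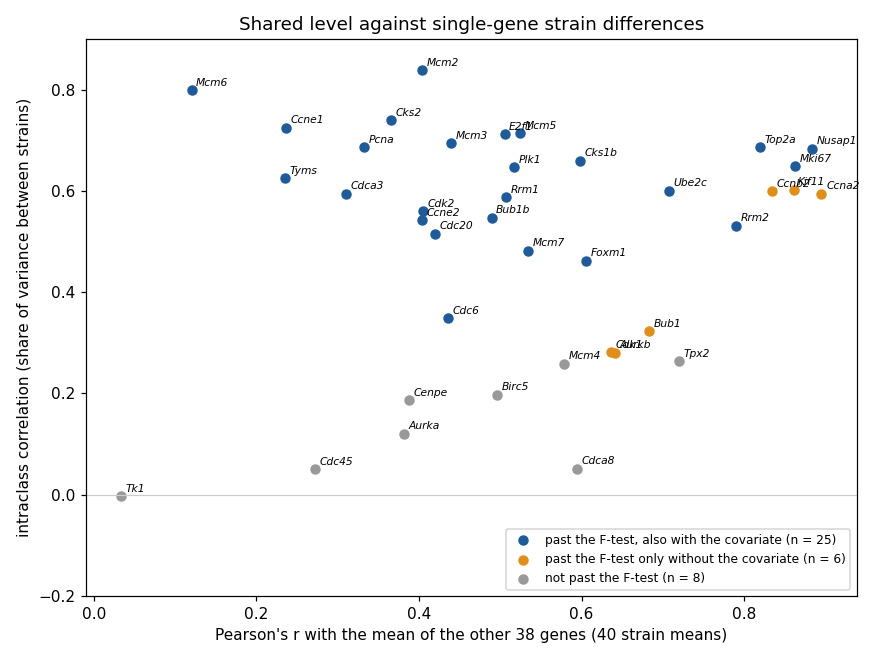
Intraclass correlation (share of variance between strains) of each of 39 cell cycle genes against its Pearson's r with the mean of the other 38 genes over 40 strain means, coloured by the F-test with and without that mean as covariate. Mcm2, Mcm6 and Cks2 stand high at the left, Nusap1, Mki67 and Top2a high at the right, and the 6 genes that passed without the covariate alone have r of at least 0.636.

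Each strain was compared with the mean of the other 39 to find which strains carried the differences. There were 170 calls among 1560 combinations of member and strain, 101 of them higher and 69 lower. Most rest on both arrays of the strain: of the 168 calls that could be refitted with 1 of the strain's own arrays left out, 151 were lost without at least 1 of them, where a strain of 2 keeps a lone array. Under the other alternatives 81 of the 170 were lost in at least 1, and 89 in none. Over all probe sets 6.39% of such contrasts were called, 3.25% higher and 3.14% lower. Calls fell in 34 strains, and 6 strains had none: AKR/J, C57BLKS/J, C57BR-titled, C57L/J, CBA/CaJ and CBA/J. Only Cdc6 and Cdca8 were called in no strain.

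A/J had the most calls, with 14 members higher and none lower, against 2.7% of all probe sets called higher in that strain. Mki67 (1.11), Top2a (0.97), Ccna2 (0.93), Rrm2 (0.77) and Mcm6 (0.72) led on the log2 scale. None of the 14 was called without replicate 2, the array with raised B cell and erythroid markers, and 17 members were called without replicate 1. The remaining array of a pair is then assumed to vary like the other groups. On replicate 1, Mki67 was at 157 and Top2a at 132, above the strain medians of 99.8 and 90.7.

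SJL/J had 13 members lower and none higher, against 5.2% of all probe sets called lower. Top2a (-0.84), Ccne2 (-0.66), Mcm7 (-0.57), Cks1b (-0.47), Plk1 (-0.47), Rrm1 (-0.45) and Cdk2 (-0.45) led, so that the low level took in replication, cyclin and mitotic genes alike. Its replicate 2 was the lower array, and 6 members were called without replicate 1 and none without replicate 2. The mean of activated T cell markers was also lowest in SJL/J, at 7.88, and highest in A/J, at 8.44. On A/J replicate 1 it was 8.39, below both MA/MyJ arrays, at 8.42, and on replicate 2 it was 8.49. Single markers of this list correlated with the module mean over arrays from -0.191 for Cd44 to 0.404 for Il2rb. The part of such cells in the differences was not tested.

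The erythroid marker mean was 5.66 on CE/J replicate 1 and 6.28 on replicate 2, and its part in the calls was not tested. CE/J had 10 members higher and none lower, against 6.78% of all probe sets called either way. Mki67 (0.69), Mcm2 (0.62), Nusap1 (0.54), Rrm2 (0.52) and Plk1 (0.50) were in the lead. The number was 10 without replicate 1 and 1 without replicate 2. MA/MyJ had 8 higher, led by Top2a (0.82), Mki67 (0.73), Ccna2 (0.66) and Bub1 (0.60), against 4.73% of all probe sets. This fell to 0 without replicate 1 and 5 without replicate 2. SEA/GnJ had 7 higher, led by Top2a (0.97), Mcm2 (0.71), Nusap1 (0.69) and Kif11 (0.69), and 1 lower, Mcm6 (-0.41), against 3.81% of all probe sets called either way. The number was 4 without replicate 1 and 1 without replicate 2. In DBA2-titled, 8 were higher, led by E2f1 (0.60) and Ccnb2 (0.50), and Mcm6 was lower (-0.57), against 10.1% of all probe sets. There 2 calls remained in number without replicate 1 and 6 without replicate 2.

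PL/J, PWD/PHJ, CAST/EiJ and MSM/Ms had many calls among all probe sets, with 21.6%, 16.1%, 17.7% and 12.5% called either way. PL/J had 11 members called in both directions. Cks2 (1.04), Mki67 (0.59), Plk1 (0.56), Tk1 (0.44), Cdc20 (0.25) and Ccne1 (0.22) were higher, and Mcm3 (-0.44), Rrm1 (-0.35), Mcm5 (-0.34), Mcm4 (-0.34) and Pcna (-0.27) lower. Without replicate 2, the array with raised markers of other cells, 3 were called, and without replicate 1, 12 were called. The Cks2 call of PL/J held without either array, with adjusted p of at most 0.00337 (limma), and so did that of Mcm5, with at most 0.0319.

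PWD/PHJ had 8 members higher, among them Cks2 (0.46), Mcm4 (0.43), Ccne1 (0.42), Mcm3 (0.40) and Cdk2 (0.38), and 2 lower, Plk1 (-0.38) and Cdca3 (-0.34). MSM/Ms had 8 lower, led by Top2a (-0.72), Plk1 (-0.61), Cks2 (-0.59) and Cks1b (-0.55), and 1 higher, Mcm2 (0.52). CAST/EiJ had 6 lower, led by Top2a (-0.78), Cks1b (-0.72) and Mki67 (-0.61), and 2 higher, Tyms (0.51) and Aurka (0.26). Without its replicates in turn PWD/PHJ had 5 and 2 calls, MSM/Ms 4 and 5 and CAST/EiJ 4 and 5.

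C57BL/6J, with 5 arrays, had 4 members called, 10.3% of them, close to the 9.87% of all probe sets called. Bub1b (0.33) and Mcm6 (0.27) were higher, and E2f1 (-0.28) and Mcm5 (-0.16) lower. Mcm6 was no longer called with quantile normalization or with arrays centred on their median. Mcm5 was no longer called with arrays centred on their median or the replicate number as a block, and E2f1 and Bub1b with that block. Replicate numbers 4 and 5 occur in C57BL/6J alone, so the block takes up these 2 of its arrays. Without 1 of the 5 arrays adjusted p reached 0.108 for Mcm5 and 0.0534 for Mcm6 (limma). It was at most 0.0115 for E2f1 and 0.0258 for Bub1b (limma). Single-strain calls that held without either array of the strain, each with adjusted p from limma, included those of Mcm2 in SEA/GnJ (at most 0.000492), JF1/Ms (at most 0.000861), CE/J (at most 0.00236) and P/J (at most 0.00898). The same held for E2f1 in DBA2-titled (at most 0.00326), Ccne1 in PWD/PHJ (at most 0.00443), Cks1b in CAST/EiJ (at most 0.00397), Tyms in CAST/EiJ (at most 0.00681), Cks2 in FVB/NJ (at most 0.00695), Plk1 in MSM/Ms (at most 0.00766) and Mcm6 in LP/J (at most 0.0175).

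JF1/Ms, MSM/Ms, PWD/PHJ and CAST/EiJ descend wholly or mainly from subspecies of the house mouse other than domesticus. They were compared with the other 36 strains, with the strain as the replicate. Cks1b was lower in the 4 strains, with a mean log2 level of 6.86 against 7.33 (difference -0.48 ± 0.12, adjusted p = 0.00721, limma). It was the 1 member called, among 3.77% of all probe sets called lower and 4.96% called higher. For Mcm2 the mean was 9.31 against 8.89 (adjusted p = 0.0559) and for Cdca3 6.45 against 6.64 (adjusted p = 0.0792), and neither passed. Mcm2 passed with quantile normalization (adjusted p = 0.0447), without the dimmest 40 percent of probe sets (0.0428), without MSM/Ms replicate 1 (0.0328) and without P/J replicate 1 (0.0488). Cdca3 passed with quantile normalization (0.0204) and with arrays centred on their median (0.0305, all limma). Of the 39 members, 20 had a mean above that of the other strains and 5 had an unadjusted p under 0.05. Probes designed on the reference sequence can bind less well to alleles that differ under them, and this was not tested.

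Further genes of the pathway were taken from lists of other cell cycle genes and read by the same F-test. It was passed by 47.6% of all probe sets and by 77.1% of those brighter on average than the median value. These lists were not matched for brightness, so their shares are not read as an excess. Of 22 other replication genes 17 passed. Pole, the catalytic subunit of the leading strand polymerase, ran from 69.0 in CAST/EiJ over 101 to 421 in JF1/Ms, with an intraclass correlation of 0.942. Rfc4, of the clamp loader, ran from 227 in SWR/J to 1025 in JF1/Ms, Asf1b, a histone chaperone, from 201 in PL/J to 525 in MA/MyJ, and Prim1, the primase, from 87.4 (BTBR T+ tf/J) to 212 (MA/MyJ). Of 37 other mitotic genes 23 passed. Pttg1, securin, ran from 109 in LP/J over 208 to 457 in C57BL/6J, Mad2l1, of the spindle checkpoint, from 244 in NOR/LtJ to 599 in PWD/PHJ, Stmn1, a microtubule destabiliser, from 383 in CBA/J to 1152 in PWD/PHJ, and Cdc25b, a Cdk-activating phosphatase, from 275 in C57BL/10J to 715 in WSB/EiJ.

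Of 23 early G1 and Rb-E2F genes 19 passed. Cdc25a, the phosphatase of the S phase step, ran from 201 in CAST/EiJ over 386 to 468 in P/J, and E2f3 from 62.5 in WSB/EiJ over 81.4 to 185 in PWD/PHJ. E2f5, a repressive E2F, ran from 128 in PL/J to 298 in PWD/PHJ, and Cdk6, a D cyclin kinase, from 273 in CE/J to 511 in MA/MyJ. Of 6 Cdk inhibitors 4 passed, and Cdkn2c, which binds Cdk4 and Cdk6, ran from 49.5 in NZB/BINJ over 84.7 to 128 in CE/J. Of 13 quiescence factors of T cells 11 passed, among them Tob1, from 319 in MRL/MpJ over 484 to 1023 in CAST/EiJ, and Btg2, from 1281 in MSM/Ms to 1966 in C3H/HeJ.

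The probe sets outside the list that followed the module mean most closely over the 82 arrays were those of Esco2 (r = 0.713), Dtl (0.713), E2f8 (0.701), Kif15 (0.686), Depdc1a (0.685 and 0.674), Stil (0.680), Asf1b (0.640), Ccnf (0.636) and Knl1 (0.630). Their correlations without the 2 arrays with raised markers of other cells ran from 0.563 for Knl1 to 0.707 for Dtl. In contrast Pttg1, which had the highest intraclass correlation of the other mitotic genes, 0.967, had r = 0.00678 with the module mean, and Pole had 0.255.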

How the data were processed

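The values were the authors' deposited intensities, on a linear scale and already normalized, of 24922 probe sets on each of 82 Affymetrix ST1.0 arrays. The submitters' processing notes name Affymetrix Power Tools and RMA, while versions, probe annotation and filters are not given in the sources used here. No array was rescaled here: the deposited intensities were turned into log2 values with no further normalization or filter, so array medians were left as the authors deposited them. Symbols came from the platform annotation: 21425 probe sets had 1 symbol, 1399 several and 2098 none, and those with 1 symbol were named. Each gene was read from its brightest probe set by overall mean. An intensity depends on the probes, so levels of different genes were not compared.

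Arrays were grouped by strain from titles and background labels. Each array held a pool of mice that the series text counts as a biological replicate, so the p-values rest on the spread between pools. The labels give no scan date, and no 2 arrays held identical values. The number of arrays limits the precision, with 2 in most groups.

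A model with 1 coefficient per group was fitted with limma 3.58.1 in R 4.3.3 (lmFit, eBayes, 42 residual degrees of freedom and a prior of 8.09). Strains were compared by the moderated F-test, each strain with the mean of the other 39 by contrasts, and the 4 strains of other subspecies with 36 on strain means. The Benjamini-Hochberg adjustment covered the whole table, and 0.05 was the threshold. Member means and correlations carry no p-value. The computations were tested on simulated data. The members and lists were chosen with earlier results of these data known. Named members were those past the F-test with the largest SD of strain means, up to 15, and those past it with an intraclass correlation of at least 0.6. Each is given with the strain of its largest called difference. Low and high strains were picked by the same values, so a gap between their arrays follows in part from that choice and is no further test. Other members are given by their span, and Cdk1, Aurkb, Cdc6, Bub1 and the like were described after their values were seen. Up to 4 genes per further list were named by the same SD, together with the 10 probe sets most correlated with the member mean. Promoters came from RefSeq (GRCm38.p6).

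The alternatives were quantile normalization, centring on array medians, dropping the 40 percent of probe sets with the lowest means, an offset of 32, leaving out PL/J replicate 2 and A/J replicate 2, the B cell marker mean as a covariate, each array left out in turn, a trended and robust prior, the replicate number as a block, the median of the members and the most significant probe set per gene.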

Additional observations from a re-analysis of the deposited data

Results flagged for a closer look

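In C57BL/6J, the group with 5 arrays, replicate 5 lay far from the other 4 for 3 of the 39 members and the module mean that were examined. Its log2 level was 7.89 for Tk1, where the others lay between 7.25 and 7.38. For Ccne1 it was 7.96, where the others lay between 7.70 and 7.71. For Cdc20 it was 7.12, where the others lay between 6.68 and 6.77. The gap to the nearest array, divided by the range of the group, was 0.808, 0.955 and 0.805, above Dixon's critical value of 0.71. About 5% of groups exceed that value by chance. Replicate 5 also had the highest array median of all 82 arrays, 142, and the highest module mean of its strain, 7.19. Its erythroid marker mean was 6.33, where the other arrays of the strain lay between 5.56 and 5.74. Its B cell marker mean was 6.05, where the others lay between 5.58 and 5.69. The part of the array median and of other cells in these gaps was not tested.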

How the results depend on the processing

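The strain F-test called 29 to 33 members in number when each array was left out in turn, and 24 to 33 under the other alternatives, the lowest where the dimmest 40 percent of probe sets were not tested. With the mean of the other members as a covariate the numbers were 23 to 27 and 21 to 27. Over all probe sets they were 11390 to 13402 without 1 array. The SD of strain means of the module mean ran from 0.12 to 0.14 without 1 array, both ends set by A/J, and the calls of single strains from 155 to 187. Those calls numbered 138 with arrays centred on their median and 196 with quantile normalization, and 122 and 146 of the original 170 were among them. The comparison of the 4 strains of other subspecies called 3 members with quantile normalization, 2 with arrays centred on their median and 2 without the dimmest 40 percent of probe sets, against 1 otherwise. Leaving out 1 array gave 1 to 2 members, with 2 without MSM/Ms replicate 1 or P/J replicate 1. Cks1b passed in each of these settings, with adjusted p (limma) of at most 0.0193, reached without MSM/Ms replicate 1, and of 0.00557 without the dimmest 40 percent of probe sets. With the replicate number as a block 32 members were called in the strain F-test, 25 with the covariate, and 169 single-strain calls. Differences between replicates 1 and 2 of 37 strains had a median correlation of -0.000444, with values from -0.626 to 0.567 over 666 pairs of strains. Positive and negative values cancel in the median, so it does not show whether some arrays were paired. The signal over background of single probe sets was not given in the sources used here, and 15 members had a mean intensity under 100, where differences are compressed.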

Other observations

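Outside the listed genes, the 3 named genes whose strain means followed Mcm2 most closely over 40 strains lay on its chromosome. Tpra1, the next protein-coding gene in the GRCm38.p6 assembly, had Pearson's r = 0.699, Rpn1 with 10 protein-coding genes between had 0.693, and Lsm3 with 37 between had 0.687. Rpn1, a subunit of the oligosaccharyltransferase, ran from 522 in PL/J over 658 to 1181 in JF1/Ms, and Lsm3, of the splicing machinery, from 516 in PL/J over 716 to 1094 in CE/J. Tpra1 ran from 630 in SWR/J, the lowest strain for Mcm2 too, to 1044 in JF1/Ms. For Mcm6, Cks2, Ccne1 and Mcm5 the 3 most correlated genes lay on other chromosomes. The strongest of them were Sec23b for Mcm5 (0.788), Inpp5k for Ccne1 (0.697), Irgm1 for Cks2 (0.650) and Scn2b for Mcm6 (-0.553). Spearman's rho was 0.810, 0.636, 0.377 and -0.640 for these pairs, so the value of Irgm1 was lower by rank. These genes were named after their values were seen. They were the closest among probe sets outside the list with 1 symbol, that of a RefSeq protein-coding gene. The values are descriptions with no test.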
